A study of Saccharomyces cerevisiae with 12 samples.

Results

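Genes next to the chromosome ends of Saccharomyces cerevisiae were followed by SLAM-seq, a method that marks newly made RNA with 4-thiouracil and reads the mark as T-to-C conversions. A gene was taken as subtelomeric when its counting interval on a nuclear chromosome started or ended within 20 kb of the outermost interval of that chromosome, and 3 genes named in advance were left out. This gave 263 of 6419 nuclear intervals, on 32 arms of 16 chromosomes with 5 to 12 members each. The remaining 6156 nuclear intervals served for comparison, and 301 of them lay 20 to 40 kb from the ends. By annotation 251 members were protein coding, 11 were pseudogenes and 1 was a tRNA. A total of 139 members lay on the 17 ends that carry a Y′ element, the repeated block next to some yeast telomeres, and 124 lay on the 15 ends with only an X element.

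The series held 12 libraries in 4 groups of 3 replicates, A, B and C, described by the submitters as biological. The control strain, RDY73, carried pGPD1-OsTIR1:HIS3, BDF2-3xV5-mAID::KanMX and BDF1-3xV5-mAID::URA3, so that auxin (3-indoleacetic acid, IAA) depletes both BET proteins of yeast, Bdf1 and Bdf2. The ET strain, RDY388, added pJR15:TRP1, in which the GPM1 promoter drives the RPL25 nuclear localization signal, 3xV5 and the ET domain of Bdf1, ending in the BDF1 terminator, at the TRP1 locus. Each strain received IAA or its solvent DMSO for 25 min, and all 12 cultures were then labelled for 4 min. Both strains carry the degron tags and OsTIR1, so no library is from an untagged strain, and the ET domain is expressed from a strong promoter that is not its own. S. pombe cells were added before RNA purification as a spike-in. The quantities reported per gene are all reads and T>C reads, the latter being reads with at least 2 conversions.

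As background, yeast chromosomes end in irregular G- and T-rich repeats that bind Rap1, which with the yKu complex recruits the silencing proteins Sir2, Sir3 and Sir4. Sir2 removes acetyl groups from histones, and genes placed near telomeres or in the silent mating type loci are transcribed poorly. Bdf1 and Bdf2 are double-bromodomain proteins that bind acetylated histones and associate with the general transcription factor TFIID. Subtelomeres also hold many gene families with copies on several ends, such as PAU, COS and the Y′ helicases YRF1.

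Some sequences of the places described below are shown first, from the R64 reference of RefSeq, and their part in the results was not tested. One is the outermost stretch of the right end of chromosome III, the end of AAD3 and RDS1, the 2 members that varied most between replicates. The others are the stretches from 250 to 101 bases before the start codon of the 5 members whose T>C reads are described in most detail. Capitals mark TTACTAA, its reverse complement TTAGTAA, or TTACGTAA, motifs bound by the Yap family of stress regulators.
III right end, chrIII:316561-316620, plus strand: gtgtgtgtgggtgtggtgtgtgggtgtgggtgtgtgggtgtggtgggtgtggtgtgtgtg
AAD6, chrVI:15532-15681, minus strand: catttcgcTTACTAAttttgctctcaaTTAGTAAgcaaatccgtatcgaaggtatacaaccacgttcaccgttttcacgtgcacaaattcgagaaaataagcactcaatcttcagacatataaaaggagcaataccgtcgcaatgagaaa
ADH6, chrXIII:912244-912393, minus strand: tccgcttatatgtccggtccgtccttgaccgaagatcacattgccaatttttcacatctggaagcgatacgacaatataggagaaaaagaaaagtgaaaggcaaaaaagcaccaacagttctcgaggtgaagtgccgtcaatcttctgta
YML131W, chrXIII:9948-10097, plus strand: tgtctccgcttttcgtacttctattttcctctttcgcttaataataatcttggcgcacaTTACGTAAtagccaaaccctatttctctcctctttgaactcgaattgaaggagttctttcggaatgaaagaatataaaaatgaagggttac
YLR460C, chrXII:1060988-1061137, minus strand: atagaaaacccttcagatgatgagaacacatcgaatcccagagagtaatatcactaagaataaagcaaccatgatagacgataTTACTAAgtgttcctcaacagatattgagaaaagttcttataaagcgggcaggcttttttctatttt
YCR102C, chrIII:305568-305717, minus strand: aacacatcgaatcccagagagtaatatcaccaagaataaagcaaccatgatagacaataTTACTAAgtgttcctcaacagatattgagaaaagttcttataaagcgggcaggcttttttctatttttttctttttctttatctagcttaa

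The right end of chromosome III held 60 G or T in 60 bases. YLR460C and YCR102C are related genes on different chromosomes, and the 250 bases before their start codons matched at 222 of 226 aligned bases (98.2%). On either strand, TTACTAA occurred in the 250 bases before the start codon of 399 of 5994 genes (6.66%) and of 12 of 250 members (4.8%). TTACGTAA occurred before 35 genes (0.584%) and before 2 members (0.8%). The motifs do not overlap, and a match is a description of letters only.

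Most subtelomeric genes gave few reads, and the sums below rest on a small number of them. Over the 12 libraries together the median was 43 reads and 3 T>C reads per member, against 2182.5 and 141 for the remaining genes and 1412 and 91 for genes 20 to 40 kb from the ends. No read was counted for 32 members, 153 had fewer than 100 reads, and 49 had 1000 or more. T>C reads were counted for 166 members in some library and for 39 in every library (14.8%, against 58.9% of the other genes).

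Repeated sequence limits what can be counted at the ends. The share of 150-base windows that occur once in the genome reached 100% in 51.7% of members and in 96.3% of other genes, and 21 members had no unique window. Members without a read had a median of 13.2% unique windows, whereas the median of members with a read was 100%. Reads mapping to several places made up 0.614% ± 0.0402 and 0.586% ± 0.0755 of member reads in control DMSO and IAA libraries, and 0.581% ± 0.0400 and 0.627% ± 0.114 in ET DMSO and IAA libraries (SD, n = 3 each). For the other genes the means were 0.505%, 0.491%, 0.565% and 0.543%. The groups overlapped in this share. Multimapping reads were 5% or more of the reads of 17 members, for example 109 of 123 reads of YAR068W (88.6%), and none of these 17 had T>C reads in every library. Counting intervals on the same strand overlapped for 43 members, 5 of them among the 39, so that reads there cannot be assigned to 1 gene.

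Depth differed between libraries. S. cerevisiae reads per library ran from 6279282 to 11395597, T>C reads from 90321 to 330857 and S. pombe reads from 445036 to 722822.

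The share of all newly made RNA that came from the chromosome ends was slightly higher after Bdf1/2 depletion in both strains, and this rested on 5 genes. The members summed to 10.8, 10.7 and 10.0 T>C reads per 1000 nuclear T>C reads in control DMSO libraries A, B and C, and to 11.9, 11.2 and 11.8 in control IAA libraries. The ET strain gave 11.1, 11.6 and 12.1 with DMSO and 12.2, 12.7 and 12.9 with IAA. Within each strain the 3 IAA libraries lay above the 3 DMSO libraries, and the means were 10.5 ± 0.429, 11.6 ± 0.358, 11.6 ± 0.508 and 12.6 ± 0.344 (SD, n = 3). Without the 5 members with the most T>C reads the order turned: 4.43 ± 0.188 and 3.70 ± 0.324 per 1000 in the control strain with DMSO and IAA, and 4.77 ± 0.288 and 3.81 ± 0.218 in the ET strain. The 133 members within 10 kb of the ends also fell, from 0.797 ± 0.0338 to 0.484 ± 0.0933 per 1000 in the control strain and from 0.986 ± 0.0763 to 0.625 ± 0.00780 in the ET strain. No test was made of a sum over members.

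**Figure D1:**
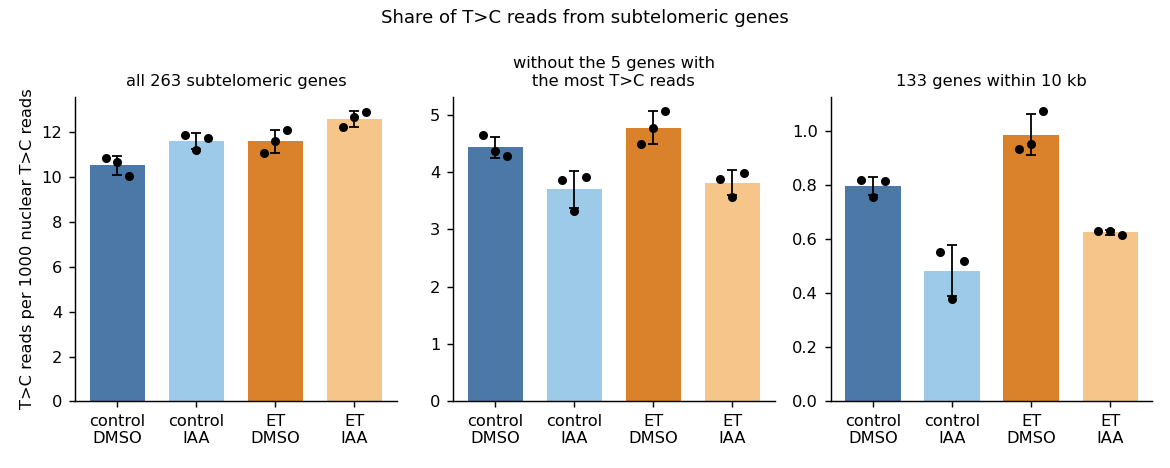
Summed T>C reads of subtelomeric genes per 1000 nuclear T>C reads by group, for all 263 members, without the 5 members with the most T>C reads, and for the 133 members within 10 kb. Bars are means, error bars SD, points libraries (n = 3 per group); the IAA bars are above the DMSO bars only in the first panel, with means of 10.5 and 11.6 in the control strain and 11.6 and 12.6 in the ET strain.

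All reads behaved differently from T>C reads: members made up 3.08 ± 0.143 and 2.33 ± 0.0903 of 1000 nuclear reads in the control strain with DMSO and IAA, and 3.29 ± 0.247 and 2.64 ± 0.127 in the ET strain. The corresponding sums per library averaged 2793 ± 390, 1289 ± 245, 3656 ± 408 and 2097 ± 379 T>C reads. Multimapping reads of members averaged 186 ± 25.5, 107 ± 8, 193 ± 33.7 and 153 ± 12.7 per library. The labelled share, T>C reads as a percent of all reads, was 9.22% ± 0.382, 6.94% ± 0.171, 11.1% ± 0.898 and 8.45% ± 0.502 over the members together. Over the other genes it was 2.68% ± 0.0494, 1.38% ± 0.0784, 3.12% ± 0.292 and 1.75% ± 0.0932, so the members together lay above the other genes in every group. Genes with many reads weigh most in these shares, and the medians per gene were closer, at 7.17% for members and 6.26% for other genes in control DMSO libraries.

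Distance from the end separated the sums. Members within 5 kb gave 297 ± 41.0 and 173 ± 15.0 T>C RPM (T>C reads per 1000000 nuclear T>C reads) in the control strain with DMSO and IAA, and 389 ± 59.9 and 237 ± 34.5 in the ET strain. At 5 to 10 kb the sums were 499.5 ± 74.8, 311 ± 78.5, 597 ± 85.5 and 387 ± 35.6 in the same order. At 10 to 15 kb, where YML131W, ADH6 and YCR102C lie, they were 5606 ± 313, 7079 ± 218, 6173 ± 166 and 7523 ± 295, and at 15 to 20 kb 4110 ± 133, 4039 ± 224, 4422 ± 293 and 4441 ± 173. The 10 to 15 kb bin was the only one of the 4 in which the IAA mean exceeded the DMSO mean by more than both SDs in both strains.

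The newly made RNA of the ends came mostly from reductase and dehydrogenase genes. YML131W, which encodes a putative medium-chain reductase, had 5535 of the T>C reads of all members (18.8%). ADH6, an NADP-dependent alcohol dehydrogenase, had 5075 (17.2%), and YLR460C, of the same reductase superfamily as its relative YCR102C, had 4801 (16.3%). YCR102C had 1704 (5.78%) and CHA1, the serine and threonine deaminase, 1197 (4.06%). These 5 genes together made up 62.1%. AAD6, a pseudogene of the aryl-alcohol dehydrogenase family by annotation, had 1023 T>C reads (3.47%). It was followed by ERO1, the endoplasmic reticulum thiol oxidase, with 880, DLD3 (a lactate and 2-hydroxyglutarate dehydrogenase) with 623, the siderophore transporter ARN1 with 505, the cytochrome oxidase assembly factor COX14 with 481, the proteasome subunit PRE4 with 448 and the sterol enzyme ERG13 with 441. By arm, 26.1% of member T>C reads came from XIII left, 17.8% from XIII right and 16.9% from XII right, whereas IX left gave 2 T>C reads among 48 reads.

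In the files' R64 coordinates these intervals are YML131W at chrXIII:10198-11545 (plus strand), ADH6 at chrXIII:910811-912143 (minus), YLR460C at chrXII:1059507-1060887 (minus), YCR102C at chrIII:304111-305467 (minus), CHA1 at chrIII:15548-16880 (minus) and AAD6 at chrVI:14055-15431 (minus). Each covers the gene and 250 bases past its 3′ end. YLR460C and YCR102C resemble each other in sequence, but all of their 150-base windows were unique.

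Several of these genes carried the label in about 1 read of 5. Over the 12 libraries the labelled share was 20.2% for YLR460C, rank 56 of 5829 genes with at least 100 reads, 20.2% for YCR102C (rank 59), 19.9% for YML131W (rank 63) and 17.0% for AAD6 (rank 142). YLR460C had 21.9% ± 1.42, 14.9% ± 0.896, 24.3% ± 2.44 and 18.4% ± 2.18 (SD, n = 3) in the control DMSO, control IAA, ET DMSO and ET IAA groups, and AAD6 had 18.1% ± 3.37, 12.1% ± 1.25, 23.1% ± 0.398 and 16.1% ± 1.56. ADH6 was lower at 11.6%, CHA1 at 5.5%, ERG13 at 2.5% and the peroxidase HYR1 at 0.88%.

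The 110 members with at least 100 reads had a median labelled share of 7.21%, and 36 of them (32.7%) were above 10%, against 20.4% of the other genes. By distance the medians were 8.18% (14 genes), 7.05% (22), 6.78% (37) and 7.75% (37) in 5-kb bins from the end inward, and 6.29% for 265 genes at 20 to 40 kb. Among less abundant members, YCR099C reached 21.5% of 163 reads, PAU3 20.5% and the transcriptional regulator TOG1 19.5%, named after their values were seen.

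**Figure D2:**
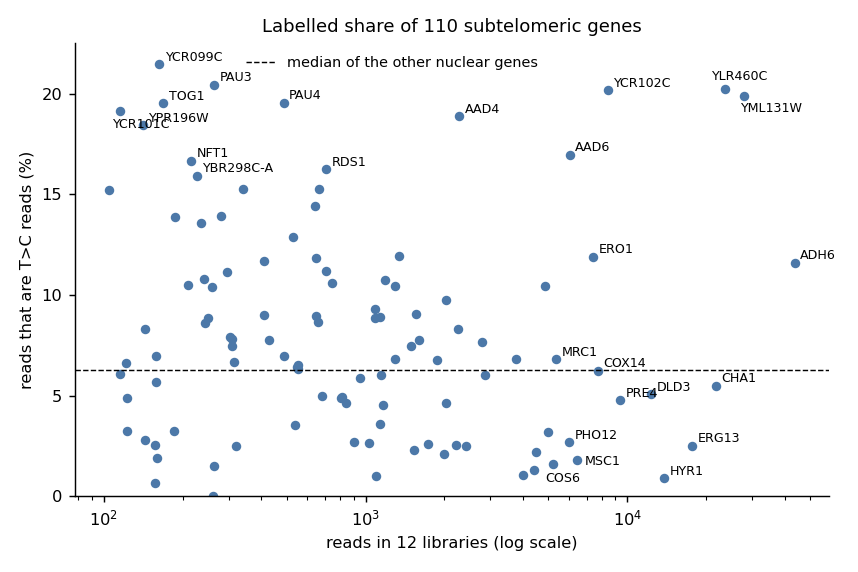
Labelled share (T>C reads as a percent of all reads, 12 libraries together) against total reads on a log scale for the 110 subtelomeric genes with at least 100 reads; the dashed line is the median of the other nuclear genes. YLR460C (20.2%), YCR102C (20.2%) and YML131W (19.9%) combine many reads with a high share, whereas ERG13 (2.5%) lies below the line.

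The first comparison asks which genes lose or keep transcription when Bdf1 and Bdf2 are depleted. In the control strain T>C reads of AAD6, ADH6, YLR460C, YML131W, ERO1, YCR102C, PAU4 and MSC1 were higher with IAA and those of MRC1 and YKL222C lower, on a scale set by size factors from all reads. These are 8 higher and 2 lower of the 39 members with T>C reads in every library, beside 14.3% higher and 28.7% lower of all 3677 genes tested (edgeR quasi-likelihood test, threshold 0.05 after Benjamini-Hochberg adjustment). The log2 changes had a median of 0.12 for the 39 members, −0.46 for all genes tested and −0.51 for 137 genes at 20 to 40 kb. The requirement of a T>C read in every library removes genes that fall to 0 with IAA, so the 39 are not a sample of all 263. With a limit of 10 T>C reads in all, 101 members were tested, 9 were higher and 8 lower, and their median exceeded that of all genes by 0.17 in place of 0.59. Of all 5768 genes tested with that limit, 516 were higher and 1631 lower.

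The scale decides the direction. With libraries scaled to the sum of S. cerevisiae or of S. pombe reads, the median of all genes was −1.61 or −1.78 in the control strain and −1.40 or −1.64 in the ET strain. No member was higher in either strain, and 26 or 27 of the 39 members were lower. Of all 3677 genes, 2930 or 3003 were lower in the control strain and 2927 or 3078 in the ET strain. A scale shifts all genes by nearly the same amount, so a member's place relative to the median of all genes is almost fixed by construction. Above that median lay 29 of the 39 in the control strain and 28 in the ET strain. With the limit of 10 T>C reads in all it was 56 of 101 members in each strain. With 1 T>C read in any library it was 88 of 166 in each strain.

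AAD6 gave 49.7, 47.3 and 40.6 scaled T>C reads in control DMSO libraries A, B and C and 111, 120 and 117 in control IAA libraries. In the ET strain it gave 64.4, 66.4 and 69.4 with DMSO and 142, 116 and 135 with IAA. No IAA library overlapped a DMSO library of the same strain. The log2 change was 1.33 ± 0.198 (SE; edgeR adjusted p = 1.557e-08) in the control strain and 0.97 ± 0.178 (adjusted p = 6.786e-06) in the ET strain. With S. pombe scaling these were 0.00 and −0.20, so on that scale the T>C reads of AAD6 did not rise while the median gene fell.

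ADH6 gave 281, 302 and 274 scaled T>C reads in control DMSO and 486, 494 and 514 in control IAA libraries, and 353, 338 and 387 against 504, 505 and 587 in the ET strain. Again the IAA and DMSO libraries of a strain did not overlap. The changes were 0.80 ± 0.127 (SE; edgeR adjusted p = 8.953e-08) and 0.57 ± 0.122 (adjusted p = 0.000114), and −0.53 and −0.60 with S. pombe scaling.

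Of the pair with near-identical upstream stretches, YLR460C was called in both strains and YCR102C in the control strain, a difference between the genes that was not tested. YLR460C had means of 285 ± 26.5 and 430 ± 21.2 scaled T>C reads in the control strain with DMSO and IAA and 344 ± 44.2 and 497 ± 48.3 in the ET strain (SD, n = 3). Its changes were 0.59 ± 0.130 (SE; edgeR adjusted p = 0.000132) and 0.53 ± 0.125 (adjusted p = 0.000408). YCR102C had 102 ± 20.6, 138 ± 2.6, 136 ± 28.7 and 161 ± 21.9, with 0.44 ± 0.175 (adjusted p = 0.0348) in the control strain and no call in the ET strain. YCR102C was not called by DESeq2, nor without control DMSO library A or C or any 1 of the control IAA libraries.

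YML131W had 346, 349 and 297 scaled T>C reads in control DMSO and 430, 442 and 478 in control IAA libraries, without overlap, a change of 0.44 ± 0.127 (SE; edgeR adjusted p = 0.00286). In the ET strain the change was 0.40 ± 0.121 (adjusted p = 0.00561). With S. pombe scaling both YLR460C and YML131W turned, to −0.74 and −0.89 in the control strain and −0.64 and −0.77 in the ET strain. ERO1 rose by 0.66 ± 0.204 (adjusted p = 0.00584) in the control strain on the size-factor scale and was −0.67 with S. pombe scaling. ERO1 and PAU4 were not called without control IAA library A. PAU4, a seripauperin of the cell wall, and MSC1, with means under 10 T>C reads per library, changed by 1.63 ± 0.496 (adjusted p = 0.00519) and 1.69 ± 0.464 (adjusted p = 0.00199), and both were named after their values were seen.

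MRC1, the mediator of the replication checkpoint, was lower in both strains. It gave 30, 41 and 47 T>C reads in control DMSO libraries and 3, 9 and 8 in control IAA libraries, and 51, 53 and 79 against 18, 9 and 15 in the ET strain. These counts are unscaled, and depth differs between the groups. Control IAA libraries held 90321 to 121781 T>C reads in all, against 234920 to 290721 in control DMSO libraries. With the size factors applied, control IAA library B lay above control DMSO library A, so the control groups overlapped, whereas the ET groups did not. The log2 change was −1.10 ± 0.389 (SE; edgeR adjusted p = 0.0163) in the control strain and −1.10 ± 0.311 (adjusted p = 0.00317) in the ET strain, and it lay below the median of all genes in both. YKL222C, a putative zinc-cluster protein, fell by 2.08 on the log2 scale (± 0.615, adjusted p = 0.00407) in the control strain, from 34, 16 and 10 T>C reads to 1, 2 and 2. In the control strain MRC1 was not called without control DMSO library C or control IAA library A, and YKL222C not without control DMSO library A.

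In the ET strain 5 of the 39 members were higher and 4 lower, beside 12.1% and 30.2% of all genes. The higher ones were AAD6, ADH6, YLR460C, YML131W and PAU13, the last at 1.89 ± 0.523 (SE; edgeR adjusted p = 0.00265), named after its value was seen. The lower ones were SEA4 of the SEA complex at −1.36 ± 0.468 (adjusted p = 0.0139), the histone deacetylase RPD3 at −1.15 ± 0.418 (adjusted p = 0.0203), MRC1, and PRE4 at −0.94 ± 0.282 (adjusted p = 0.00505). The median was 0.25 for members and −0.48 for all genes. With a limit of 10 T>C reads in all, 6 of 101 members were higher and 14 lower, and with TMM factors 13 of the 39 were higher and 0 lower. Of all genes, 420 of 5768 were higher and 1515 lower with that limit. With TMM factors 860 of 3677 genes were higher and 250 lower. RPD3 shares 12 bases of its interval with a neighbour on the same strand. Each of the 5 higher members was also called in each fit that left out 1 library, and so were MRC1 and PRE4 among the lower ones. RPD3 was not called without ET DMSO library C or ET IAA library B, and SEA4 not without ET IAA library C.

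**Figure D3:**
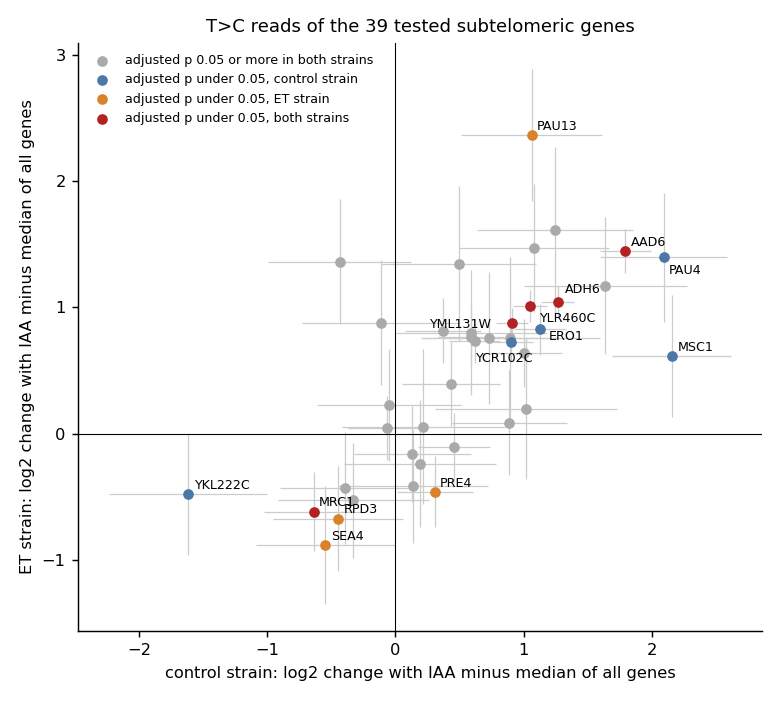
Log2 change of T>C reads with IAA minus the median of all genes, control strain on the x axis and ET strain on the y axis, for the 39 subtelomeric genes tested; bars are SE and colours give the strain in which the adjusted p was under 0.05. AAD6 and ADH6 lie high in both strains and MRC1 low in both, and 29 and 28 of the 39 genes lie above 0 on the x and y axes. The 39 have a T>C read in every library, and with a limit of 10 T>C reads in all, not drawn, it was 56 of 101 in each strain.

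No member passed the test for a difference between the strains in T>C reads. Between strains with DMSO 0 of 39 members were called, beside 0.136% higher and 0.0272% lower of all genes. With IAA it was 0, beside 0.707% and 0.571%, and for the difference between the responses of the strains 0, beside 0.0272% and 0.0816% (edgeR). At an unadjusted p under 0.05 there were 9, 3 and 2 members by edgeR and 7, 3 and 2 by DESeq2, which also called 0 after adjustment. The member medians were 0.33, 0.19 and −0.15 against 0.18, 0.17 and −0.01 for all genes. AAD6 came out at 0.54 ± 0.186 (SE; edgeR adjusted p = 0.235) between strains with DMSO and at −0.36 ± 0.265 (adjusted p = 0.865) for the difference of responses, so a difference of that size cannot be told from 0 with 3 libraries per group.

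All reads, scaled to S. pombe reads, fell for most members after depletion, as for most genes. In the control strain 84 of the 111 members with enough reads were lower and 1 higher, beside 78.1% and 1.61% of 5841 genes (edgeR). In the ET strain 82 were lower and 0 higher, beside 79.1% and 0.736%. The limit of 10 reads in every library need be met in 1 group only, and 74 of the 111 members met it in all 4. A member that met it with DMSO alone is favoured to be lower with IAA, and the same limit applied to all genes. Median log2 changes were −1.13 and −1.05 for members against −1.39 and −1.23 for all genes. With size factors from the same reads, which centre the changes near 0, 36 members were higher and 18 lower in the control strain and 34 and 11 in the ET strain. On that scale 2109 of all 5841 genes were higher and 2070 lower in the control strain, and 1966 and 1896 in the ET strain.

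Among genes with enough reads to be tested, the median fall was smaller near the ends. These were 15 of 66 intervals within 5 kb and 21 of 67 at 5 to 10 kb. In the control strain the medians were −0.89 for 15 genes within 5 kb, −0.79 for 21 genes at 5 to 10 kb, −1.23 for 39 genes at 10 to 15 kb, −1.34 for 36 genes at 15 to 20 kb and −1.39 for 260 genes at 20 to 40 kb. Within 10 kb 23 of 36 genes were lower in each strain. Members on ends with a Y′ element had a median of −1.15 (53 genes) and those on ends with an X element only −1.12 (58 genes).

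AAD6 was the single member called higher without a replicate block. It had 333, 411 and 387 S. pombe-scaled reads in control DMSO and 539, 536 and 612 in control IAA libraries, without overlap, a change of 0.58 ± 0.181 (SE; edgeR adjusted p = 0.00198). In the ET strain it had 403, 427 and 594 against 521, 569 and 674, which overlap. With the replicate letter as a block within strain, AAD6, COS6 at 0.25 ± 0.0943 (SE; edgeR adjusted p = 0.0206) and MSC1 at 0.30 ± 0.106 (adjusted p = 0.0139) were called higher in the control strain, and AAD6 at 0.32 ± 0.0959 (adjusted p = 0.00424) in the ET strain.

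The largest falls in the control strain among members with a mean of 50 or more reads were those of SEA4, RDS1, SGE1, GAB1 and ARR1. SEA4 went from 226, 191 and 192 scaled reads to 39.8, 54.2 and 42.1, a change of −2.18 ± 0.241 (SE). RDS1, a zinc-cluster regulator of drug sensitivity, was at −2.13 ± 0.329, but between −2.97 and −1.11 when 1 library was left out. The multidrug transporter SGE1 was at −2.05, GAB1, of the GPI transamidase, at −2.04 and ARR1, the regulator of arsenic resistance, at −2.03. In the ET strain the largest falls were GAB1 at −1.83, RSC9 of the RSC chromatin remodeller at −1.80, MRC1 at −1.75, CSS3 at −1.72 and RPD3 at −1.57.

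Without depletion reads of 3 members were higher in the ET strain and reads of 0 were lower, beside 0.188% and 0.0685% of all genes (11 and 4 of 5841 by edgeR). All 3 lay within 5 kb of an end. They were AAD3 at 1.33 ± 0.302 (SE; edgeR adjusted p = 0.00829), YBL113C, a Y′-element helicase-like gene, at 1.17 ± 0.272 (adjusted p = 0.0128) and RDS1 at 1.00 ± 0.258 (adjusted p = 0.0462), against a median of 0.16 over all genes. Also higher among the 11 were TRP1 at 4.18 and BDF1 at 1.86, whose sequences are part of the ET construct. With sum or size-factor scaling, or with DESeq2, only YBL113C was called. Without control DMSO library A or C, or ET DMSO library C, no member was called, and without ET DMSO library A the calls were COS1, COS8, GEX2, MSC1 and YBL113C.

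Library B stood apart in both chromosome III genes. AAD3 had 17.7, 51.9 and 19.2 scaled reads in control DMSO libraries A, B and C and 104, 22.5 and 103 in ET DMSO libraries. RDS1 had 31.7, 122 and 28.8 against 160, 50.0 and 161. In both genes library B is the high one in the control strain and the low one in the ET strain, and the groups overlap. YBL113C had 44.7, 49.1 and 35.2 against 69.3, 100 and 123, without overlap, but only 55.9% of its windows are unique and 327 bases of its interval are shared with neighbouring genes on the same strand.

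After depletion 12 members had more reads in the ET strain and 0 fewer, beside 13.1% and 1.4% of all genes. RDS1 was at 1.58 ± 0.339 (SE; edgeR adjusted p = 0.000712), SGE1 at 1.02 ± 0.279 (adjusted p = 0.0108), AAD3 at 1.44 ± 0.399 (adjusted p = 0.0117), ARR1 at 0.91 ± 0.254 (adjusted p = 0.0118), YBL113C at 1.09 ± 0.308 (adjusted p = 0.0132) and ARR2, the arsenate reductase, at 0.93 ± 0.268 (adjusted p = 0.0143). The others were COS1, GEX2, MAL11, YPS6, YCR101C and YBR298C-A. YPS6 and YCR101C passed the limit of 10 reads in every library of a group through the ET DMSO group alone, so the limit favours a higher value in the ET strain. Only 5 of the 12 passed in all 4 groups. The median of all genes was 0.30. The count ran from 1 without ET IAA library C, when only RDS1 was called, to 28 without ET IAA library A, and size factors gave 2 higher and 7 lower. Over all genes the same settings gave 96, 2110 and 215 higher, and size factors gave 679 lower. The response of total reads to depletion differed between strains for 0 of 111 members by edgeR (2 at an unadjusted p under 0.05) and by DESeq2, beside 0% of all genes.

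Replicate libraries of a group disagreed more at genes near the ends than elsewhere. For each of 5620 genes with at least 200 reads, the spread between replicates beyond counting error was expressed as a percent of the mean, after scaling by S. cerevisiae reads. Its median was 19.1% for 11 genes within 5 kb, 16.2% for 17 genes at 5 to 10 kb, 10.7% for 31 genes at 10 to 15 kb, 7.89% for 33 genes at 15 to 20 kb, 8.60% for 246 genes at 20 to 40 kb and 8.00% for 5282 genes farther in. The last 3 values lie close together. The bins also differ in read level, with a median of 53.9 reads per library within 5 kb, 90.6 at 5 to 10 kb and 222 beyond 40 kb. Among genes with a mean under 100 reads the median spread was 15.2% for members and 10.6% for other genes. With 100 or more it was 8.63% and 7.55%.

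Of the 92 members in this ranking, 22 (23.9%) were among the 5% most variable genes, against 4.69% of the other genes. The share depended on the read level. Among genes with a mean under 100 reads the shares were 34.6% (18 of 52) and 13.3% (193 of 1451), and among genes with 100 or more 10% (4 of 40) and 1.62%. With size-factor scaling the shares were 21.7% and 4.72%, and with S. pombe scaling 26.1% and 4.65%. These are descriptions, without a test.

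**Figure D4:**
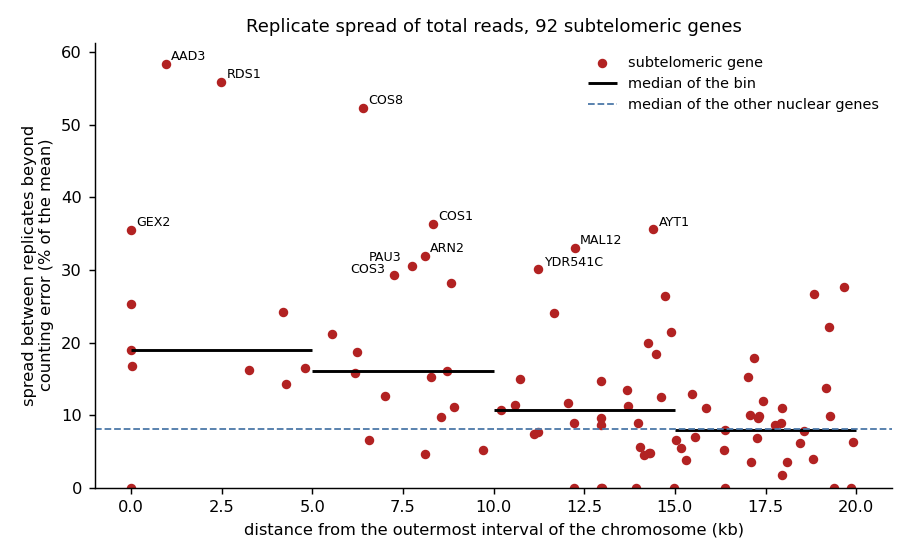
Spread between replicate libraries beyond counting error, as a percent of the mean of total reads, against distance from the outermost interval for the 92 subtelomeric genes with at least 200 reads; black lines are medians of 5-kb bins and the dashed line is the median of the other nuclear genes, 8.04%. The bin medians go from 19.1% next to the end to 7.89% at 15 to 20 kb, and AAD3, RDS1 and COS8 exceed 50%.

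AAD3, at 58.4%, RDS1, at 55.9%, and COS8, at 52.3%, ranked 2, 3 and 4 of the 5620 genes, and 6 members were among the first 20. AAD3 is an aryl-alcohol dehydrogenase gene at chrIII:313890-315231 (plus strand), and RDS1 lies next to it at chrIII:310958-313706 (plus strand). All windows of AAD3 and COS8 were unique. COS8, at chrVIII:6401-7796 (plus strand), belongs to a family of endosomal membrane proteins. After them came COS1 at 36.4%, AYT1 at 35.6%, GEX2 at 35.5%, MAL12 at 33.1% and ARN2 at 32.0%. Apart from RDS1 these genes were named after their values were seen.

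In some of these genes the variation ran together in libraries of the same letter. RDS1 had 3.36, 11.8 and 2.98 RPM (reads per 1000000 S. cerevisiae reads) in control DMSO libraries A, B and C and 0.534, 3.50 and 1.25 in control IAA libraries, then 16.0, 5.27 and 13.4 in ET DMSO and 7.47, 2.92 and 4.12 in ET IAA libraries. B was the highest letter of the control strain and the lowest of the ET strain, with either treatment. COS8 had 3.46, 15.4 and 20.8 RPM in ET DMSO and 2.38, 8.86 and 13.6 in ET IAA libraries, and 8.89, 9.99 and 9.50 in control DMSO and 8.33, 6.37 and 8.72 in control IAA libraries. Here A was the low letter of the ET strain, while the control libraries stayed within a narrow range.

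As a measure, the deviations of the 6 DMSO libraries from their group means were correlated with those of the 6 IAA libraries of the same strain and letter. The correlation was 0.85 for RDS1, 0.84 for AAD3, 0.97 for COS8, 0.78 for COS1, 0.98 for YDR541C, a carbonyl reductase gene, 0.95 for ARN1 and −0.52 for GEX2. It was over 0.5 in 35 of 92 members (38.0%) and in 27.6% of other genes, and among the 5% most variable genes in 12 of 22 members and 27.0% of others. With size-factor scaling the shares over 0.5 were 39.1% of members and 24.75% of other genes. With S. pombe scaling they were 62.0% and 60.7%, so the excess in members depended on the scale. What libraries of a letter share is not stated in the labels. Over all genes the total reads of same-letter DMSO and IAA libraries deviated together in the ET strain and not in the control strain, and the part of a shared culture was not tested.

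**Figure D5:**
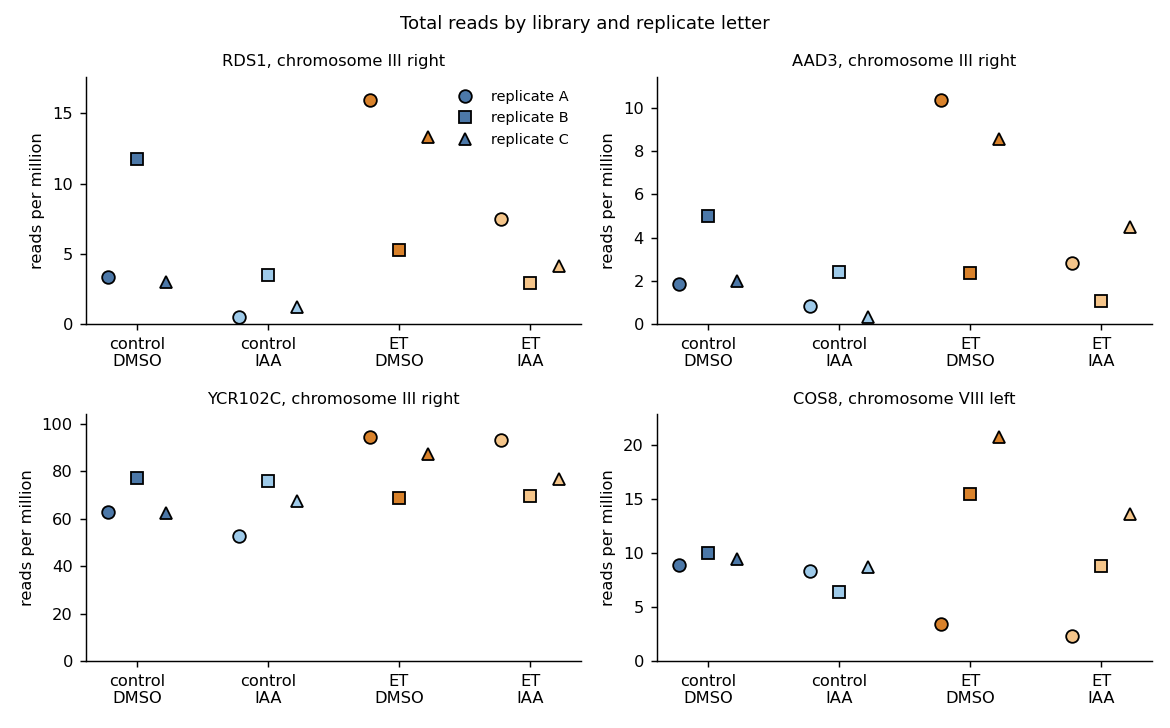
Total reads of RDS1, AAD3, YCR102C and COS8 in the 12 libraries in RPM, by group on the x axis and with the replicate letter as the symbol. In RDS1 and AAD3 letter B is the highest of each control group and the lowest of each ET group, and COS8 is lowest in letter A of both ET groups (3.46 and 2.38).

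Neighbouring genes on the right arm of chromosome III shared this pattern. Over the 12 libraries the deviations from group means correlated at 0.957 between RDS1 and YCR102C, at 0.735 between AAD3 and RDS1 and at 0.662 between AAD3 and YCR102C, but at 0.232 between RDS1 and PAU3, which lies between RDS1 and YCR102C. YCR102C itself varied over a far smaller range, with 63.0, 77.2 and 62.5 RPM in control DMSO libraries and 94.5, 68.8 and 87.3 in ET DMSO libraries. The siderophore transporter genes ARN2 and ARN1 on VIII left gave 0.943, and COS6 and MAL12 −0.701, among 137 pairs of members of the same arm. The 12 points of a pair share their libraries and depth.

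Gene families of the ends differed in how much they were read. Their counts of falls in all reads stand beside 78.1% of all genes in the control strain and 79.1% in the ET strain. All 6 aryl-alcohol dehydrogenase (AAD) genes on the list used were subtelomeric, with 9390 reads and a labelled share of 16.6%. Of 5 tested in all reads, AAD6 rose and 4 fell in the control strain (median −1.64), and 4 fell in the ET strain (median −0.99). The amino acid and lactate metabolism list gave 35538 reads from 5 members, mostly CHA1 and DLD3. All 4 tested fell in both strains, with CHA1 at −0.52 and −0.43, both above the median of all genes.

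Of 13 members involved in iron and other metals, with 12874 reads and a labelled share of 7.15%, 8 were tested in all reads, and 7 fell in the control strain and 8 in the ET strain, for example ARN1 by 0.81 and 0.56 on the log2 scale. The COS family (11 of 12 members) had 9877 reads, 5181 of them from COS6, and a labelled share of 2.57%. Of 6 tested, 4 fell in the control strain and 5 in the ET strain, with medians of −0.68 and −0.76. Unique windows ranged from 15.9% to 100% in this family. PHO12 and PHO11, acid phosphatase genes with 47.2% unique windows, and the phosphate transporter PHO89 had 7468 reads together, and all 3 fell in both strains.

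The PAU family of 24 genes had 19 members, with 16 of them read at all, 1735 reads together and a labelled share of 13.6%. PAU4, PAU13 and PAU3 held 95, 79 and 54 of the 236 T>C reads. Of 4 members tested in all reads, 2 fell in the control strain and 0 in the ET strain (edgeR; medians −0.45 and −0.19). PAU6, 1 of the 2, had 73 reads in all and passed the limit of 10 reads through the control strain alone. Its fall is therefore not independent of the limit. Among 11 maltose and sucrose genes (1738 reads, 649 of them from the maltose permease MAL31) 6 were tested, and 4 fell in the control strain and 1 in the ET strain, with medians of −1.38 and −0.76. The strains were not found to differ in this, since no difference of responses passed the test.

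The remaining families were close to silent or not countable. The 8 YRF1 helicase genes gave 17 reads, with unique windows between 0% and 5.95%. The 5 hexose transporter members gave 54 reads, 8 thiamine and vitamin B6 genes 455, 4 mannitol and sorbitol genes 242, 3 enolase-related genes 9, and FLO1 and FLO10, cell surface adhesins, 185. FLO10 fell by 2.55 and 1.96 on the log2 scale in the control and ET strains and THI11 by 1.86 and 1.57, and the 1 mannitol and sorbitol gene tested did not pass. FLO10 and THI11 had 88 and 123 reads in all and passed the limit of 10 reads through the control strain alone. A group with high values admits such genes, so their falls are not independent of the limit. The DAN and TIR genes, the DUP-related genes and the biotin genes on the lists had no member.

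The silent mating type copies at HML gave 21 reads from HMLALPHA1 and 0 from HMLALPHA2 over the 12 libraries. Only 6.68% and 13.5% of their windows are unique, so reads from these genes could not be counted apart from those of the active mating type locus. Of the markers used to check mating type, 4 alpha genes had 255897 reads and 5 a genes 1076, the pattern of alpha cells, while the labels call the samples yeast cells only.

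Genes for silencing factors lie elsewhere in the genome and were read as a fixed list of 26. In all reads 26 of 26 were lower after depletion in both strains, with medians of −1.79 and −1.55, among them SIR2 at −1.78 and −1.33 and SIR3 at −1.89 and −1.80, beside the 78.1% and 79.1% of all genes given above. In T>C reads 16 were tested, and 10 were lower in the control strain (median −1.07) and 9 in the ET strain (median −0.90), with 0 higher, beside 28.7% and 30.2% of all genes lower. Between strains with DMSO 0 of 26 differed in all reads by edgeR, and with IAA 7 of 26 were higher in the ET strain, beside 13.1% of all genes. Their part in the values of the subtelomeric genes was not tested.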

How the data were processed

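The authors trimmed reads with fastp 0.23.2, filtered them with bbduk and ran slamdunk 0.4.3 against the R64 and ASM294v2 genomes. The deposited values are whole-number counts per interval of all reads, T>C reads (at least 2 conversions) and multimapping reads, neither normalized nor pooled.

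T>C counts were tested with edgeR 4.0.16 (R 4.3.3, quasi-likelihood) in 1 model of 4 groups, with median-of-ratios size factors (DESeq2 1.42.0) from all S. cerevisiae reads as offsets, for 3677 genes with a T>C read in every library. All reads were tested with S. pombe sums as offsets, for 5841 genes with at least 10 reads in every library of a group. P-values were adjusted over all genes tested (Benjamini-Hochberg, threshold 0.05), and each SE is the size of the log2 change divided by the square root of F. Deviations of same-letter DMSO and IAA libraries from their group means correlated in total reads at 0.32, 0.20 and 0.30 for letters A, B and C of the ET strain and at −0.08, −0.21 and 0.07 in the control strain, and between −0.00 and 0.05 in T>C reads. The letters thus pair total reads of the ET strain only, by this correlation and not by the labels. The fits were tested on simulated data, but no result of that is given here, so it shows nothing about error rates. Counting error and replicate spread limit precision, and members with few reads had no test.

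Members, lists and tests were chosen with earlier results of these data known. Named genes were the members past the threshold with the largest changes and at least 10 T>C reads, or 50 reads and a 1.5-fold change, on average; the 12 members with most T>C reads; and the leading members of each list. Other named genes were picked after their values were seen.

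Spread beyond counting error is the square root of the pooled excess of the within-group variance over the mean, relative to the squared mean, set to 0 where negative. Unique windows were counted over both strands of the R64 genome. Alternatives covered scaling, filters, DESeq2, replicate blocks, the window and each library left out.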

Additional observations from a re-analysis of the deposited data

How the results depend on the processing

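On T>C reads, scaling by the sum of S. cerevisiae reads or of S. pombe reads left 0 members higher in either strain and 26 or 27 lower, TMM factors gave 1 lower in the control strain and 13 higher and 0 lower in the ET strain, and the sum gave 5 members higher in the ET strain after depletion. Of all 3677 genes, 2930 or 3003 were lower in the control strain and 2927 or 3078 in the ET strain with these sums. TMM factors gave 412 genes lower in the control strain and 860 higher and 250 lower in the ET strain. The sum of S. cerevisiae reads gave 488 genes higher in the ET strain after depletion. A limit of 10 T>C reads in all gave 8 and 14 lower, and 1 T>C read in any library 7 and 12. Of all genes, 1631 and 1515 of 5768 were lower with the first limit and 1586 and 1478 of 6214 with the second. On all reads, size factors gave 36 higher and 18 lower in the control strain and 34 and 11 in the ET strain, the sum gave 3 and 1 higher. Of all 5841 genes, size factors gave 2109 higher and 2070 lower in the control strain and 1966 and 1896 in the ET strain. The sum gave 371 and 378 genes higher. Between strains with DMSO, size factors, the sum and DESeq2 each gave 1 higher. After depletion size factors gave 2 higher and 7 lower, the sum 4 lower and DESeq2 6 higher. Of all 5841 genes, size factors gave 215 higher and 679 lower, the sum 206 lower and DESeq2 758 higher. With the sum, T>C changes turned in the control strain for ADH6 (−0.35), ERO1 (−0.49), YCR102C (−0.71), YLR460C (−0.56) and YML131W (−0.71), and in the ET strain for ADH6 (−0.36), YLR460C (−0.40) and YML131W (−0.52). With S. pombe reads they turned in the control strain for ADH6 (−0.53), ERO1 (−0.67), YCR102C (−0.89), YLR460C (−0.74) and YML131W (−0.89), and in the ET strain for AAD6 (−0.20), ADH6 (−0.60), YLR460C (−0.64) and YML131W (−0.77). The median of members minus other genes, 0.61 in the control and 0.73 in the ET strain, was 0.18 and 0.23 with the limit of 10, 0.91 and 0.50 within 10 kb, and 0.51 in the ET strain without the 5 members with most T>C reads. Within 10 kb it was −0.11 between strains with DMSO and 0.23 for the difference of responses, which was −0.30 against genes at 20 to 40 kb. Summed T>C reads per 1000 without those 5 members were 4.43, 3.70, 4.77 and 3.81, and within 10 kb 0.797, 0.484, 0.986 and 0.625. Leaving out 1 library gave 5 to 8 higher and 1 to 3 lower members in the control strain and 3 to 7 lower in the ET strain on T>C reads. On all reads it gave 0 to 2 higher in the ET strain, 0 to 5 between strains with DMSO, and 1 to 28 higher and 0 to 1 lower after depletion. The medians ran from 0.47 to 0.65, 0.48 to 0.73, 0.02 to 0.15 and −0.04 to 0.05. A replicate block within strain left the T>C calls at 8 higher and 2 lower and at 5 and 4, and gave 3 and 1 members with higher total reads. Strain differences cannot be estimated with that block. The interaction alternatives, the block across strains, DESeq2 on all reads, the window from reference chromosome ends, the set without 5 members and the scaling of replicate spread were chosen after seeing the data. The causes of these shifts were not tested.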
